A study of Mus musculus with 6 samples.

Results

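A set of 10 genes of iron handling was followed in the choroid plexus (ChP), the secretory epithelium of the brain ventricles, and of the 10 genes transferrin (Trf) was the one that passed the test between adult and E16.5. They are the rows, out of 24354 gene names, whose symbol is Trf, Tfrc, Slc40a1, Slc11a2, Fth1, Ftl1, Heph, Cp, Aco1 or Ireb2. All 10 were found, and 8 of them had a mean above 1 FPKM over the 6 libraries and were tested among 11601 genes, while Slc40a1 and Cp were not. FPKM counts the fragments of a gene per kilobase of its length, scaled to the number of fragments in the library.

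The study purified the mRNA bound to tagged ribosomes (translating ribosome affinity purification, TRAP) from the ChP of mice at 2 ages, to ask which transcripts are loaded on ribosomes before birth and in the adult. There were 3 adult libraries, labelled with an age of 60 days, and 3 libraries of embryonic day 16.5 (E16.5). Both ages carried the same genotype, FoxJ1:cre x bacTRAP (EGFP:L10a), in which Cre driven by the Foxj1 promoter switches on a ribosomal protein fused to EGFP, so that a library holds what Foxj1-Cre cells translate plus whatever untagged RNA was carried along. Neither age had a further treatment. The methods describe each library as lateral ventricle ChP pooled from 3 mice or 3 litters, whereas the design text gives 3 mice per age, so how many animals stand behind a replicate is not settled. In such bulk material fewer cells of a type and less RNA per cell cannot be told apart.

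Iron in blood and cerebrospinal fluid is carried by transferrin, which binds the transferrin receptor (Tfrc) and is taken into endosomes, where the iron is reduced and leaves through the ferrous iron transporter Slc11a2. Inside the cell it is stored in ferritin, a shell of heavy (Fth1) and light (Ftl1) chains, or leaves through ferroportin (Slc40a1), and the ferroxidases hephaestin (Heph) and ceruloplasmin (Cp) oxidise it for loading onto transferrin. The regulators Aco1 (IRP1) and Ireb2 (IRP2) bind hairpins called iron responsive elements (IREs) when iron is scarce, which blocks translation where the hairpin lies in the 5′ UTR and protects the mRNA from decay where it lies in the 3′ UTR. In the brain the ChP epithelium is known as a site of transferrin synthesis.

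The hairpins are shown here because they divide the 10 genes by their annotated mRNAs. Some genes have mRNAs that Aco1 and Ireb2 can hold back, some have mRNAs they can protect, and some have none with this sequence. A search of the sense strand of the annotated UTRs (GENCODE M21, GRCm38) asked for an unpaired C, 5 bases, the loop CAGTGN with any base but G at its end, and 5 bases pairing with the first 5, G-T pairs allowed. Each sequence runs 5′ to 3′ on the strand of its gene, with the loop in capitals:
Fth1, 5′ UTR, chr19:9982732-9982760 (+): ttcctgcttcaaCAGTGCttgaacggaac
Ftl1, 5′ UTR, chr7:45459779-45459807 (-): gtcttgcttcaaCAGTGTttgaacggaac
Slc40a1, 5′ UTR, chr1:45925465-45925493 (-): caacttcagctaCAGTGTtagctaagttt
Tfrc, 3′ UTR, chr16:32631219-32631247 (+): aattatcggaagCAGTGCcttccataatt
Tfrc, 3′ UTR, chr16:32631598-32631626 (+): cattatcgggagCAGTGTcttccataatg
Tfrc, 3′ UTR, chr16:32631663-32631691 (+): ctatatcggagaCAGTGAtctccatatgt
Tfrc, 3′ UTR, chr16:32631710-32631738 (+): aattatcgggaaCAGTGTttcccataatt

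The storage chains and the exporter thus carried the hairpin in front of the coding sequence and the receptor carried 4 behind it. Each was found in 4 transcripts of Fth1 and in 1 of Ftl1, Slc40a1 and Tfrc, of 9, 6, 8 and 7 annotated. Only coding transcripts were searched. FPKM is given per gene here, so transcripts with and without the hairpin are not separated. Of 20899 genes with an annotated 5′ UTR 23 (0.110%) held such a hairpin, and of 21028 with a 3′ UTR 100 (0.476%) did. Trf, Heph, Cp, Aco1, Ireb2 and Slc11a2 had no match to these letters in the annotated UTRs, which says nothing of hairpins of another form.

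The libraries differed in ways that touch low values. Of the genes tested, 10.3% to 36.4% were listed at 0 in the adult libraries and 3.68% to 4.02% at E16.5. Steps between the lowest values put the depth of the E16.5 libraries at 4.09 to 5.09 times that of the shallowest library, adult 3, with adult 1 at 1.29 and adult 2 at 2.88 times. One row, Mir6236, took 32.7% to 51.7% of the summed FPKM in adult and 13.3% to 15.0% at E16.5. A listed 0 is not proof of absence in this table, since Ppia, a gene used by most cells, was listed at 0 in adult 1, adult 3 and E16.5 1. Ttr, the main secreted protein of this epithelium, had 20922 to 31302 FPKM in adult and was likewise listed at 0 in all 3 E16.5 libraries, where the other 11 of 12 epithelial markers were above 0.

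Trf, the carrier (chromosome 9, 103204001 to 103230444, minus strand), was at 118.7, 213.0 and 357.7 FPKM in adult 1, 2 and 3. At E16.5 it was at 5.76, 7.09 and 11.5 FPKM. All adult libraries lay above all E16.5 libraries, with the groups far apart and a wide spread within the adults. The mean was 229.8 ± 120.4 FPKM in the adult libraries, against 8.10 ± 2.98 FPKM at E16.5 (SD, n = 3 each), a 28.3-fold difference of the means. On the log2(FPKM + 1) scale the difference was 4.57 with a standard error of 0.48 and a 95% interval of 3.45 to 5.70 (limma, adjusted p = 0.00392).

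Trf was the 1 member called higher in adult, against 2.12% of all genes tested, and the 1 member with all adults above, against 7.39% of all genes. No member was called higher at E16.5 at this threshold, where 8.83% of all genes were, and 3 of the 8 had an unadjusted p under 0.05 (limma), as did 31.3% of all genes. In 6 fits with 1 library left out the difference for Trf ranged from 4.18 to 4.98 log2 units, and without E16.5 replicate 2 it missed the threshold (limma, adjusted p = 0.0556). In that fit 0.236% of all genes were called higher in adult. The plot of levels shows the gap for Trf beside the smaller ones of the other members.

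**Figure D1:**
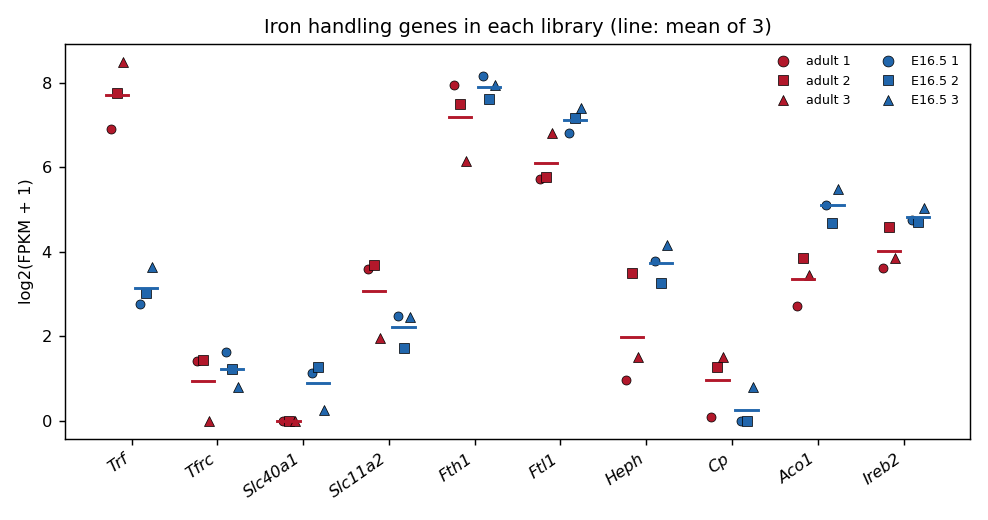
Level of the 10 iron handling genes on the log2(FPKM + 1) axis, with 1 symbol for each of the 3 adult (red) and 3 E16.5 (blue) libraries and a line at the mean of 3. Trf stands at 118.7 to 357.7 FPKM in the adult libraries, against 5.76 to 11.5 FPKM at E16.5, and Slc40a1 is listed at 0 in all adults.

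The rank of Trf within a library does not depend on how libraries are scaled to each other. Among the genes tested Trf stood at the 97.3, 98.4 and 99.3 percentile of FPKM in the adults and at the 30.0, 35.6 and 50.2 percentile at E16.5. The mean percentile was 59.7 points higher in the adults, with p = 0.1 in the two-sided exact permutation test, which is the smallest p that 3 against 3 libraries allow (adjusted p = 0.2 over the 8 members). In the adults Trf had the highest mean of the 10 genes, and at E16.5 it was in the sixth place. Its adult range still overlapped that of Fth1, the next in order.

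Trf is also made by oligodendrocytes, so their markers were set beside it. The summed level of the 10 oligodendrocyte markers was 1.05 to 73.0 FPKM in the adult libraries, against 8.12 to 23.4 FPKM at E16.5, and none of the 3 markers tested was called. Mbp, a myelin protein and the highest of the list, was at 1.05, 6.30 and 58.7 FPKM in adult 1, 2 and 3. The library with most Mbp was therefore also the one with most Trf, and in adult 1, with Mbp lowest, Trf was at 118.7 FPKM, the lowest of the adults. The part of oligodendrocytes in the level of Trf was not tested. Cnp, the second of the list by mean level, was at 4.71 FPKM in adult 2 and listed at 0 in the other adults, and Mag, Sox10, Olig1, Olig2 and Cldn11 were listed at 0 in all 3. Without adult replicate 3 the difference for Trf was 4.18 log2 units (limma, adjusted p = 0.00339).

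The genes whose profile over the 6 libraries was most like that of Trf were Slc39a4, a zinc importer, and F5, coagulation factor V. The root mean square difference from the centred log2 profile of Trf was 0.32 for Slc39a4 and 0.48 for F5, among 6562 genes above 0 in all 6 libraries. Slc39a4 was at 15.5, 24.7 and 59.9 FPKM in the adult libraries, against 0.315 to 1.11 FPKM at E16.5, with the same order of the adults as Trf. F5 was at 163.2 to 197.5 FPKM in the adult libraries, against 6.40 to 9.89 FPKM at E16.5, with little spread within an age. These profiles share their libraries and their depth with Trf.

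**Figure D2:**
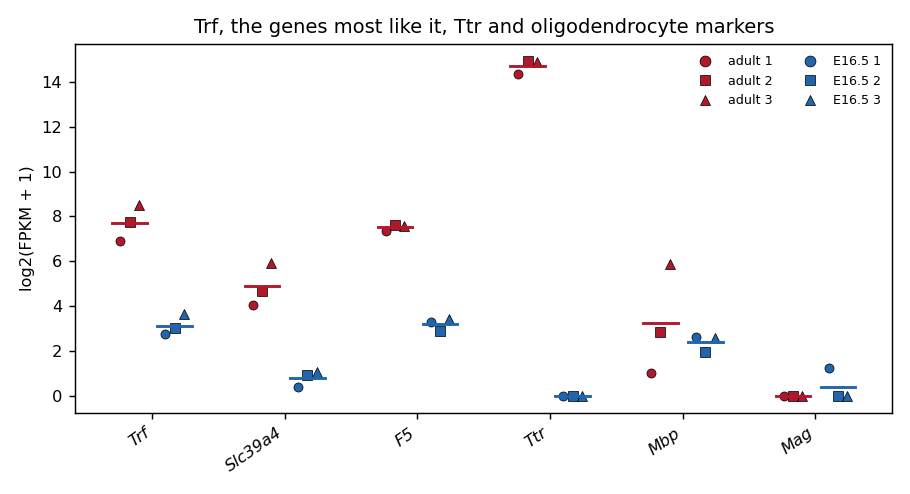
Trf, the 2 genes most like it, the epithelial marker Ttr and 2 oligodendrocyte markers on the log2(FPKM + 1) axis, with 1 symbol for each library and a line at the mean of 3. Mbp is highest in adult 3 (58.7 FPKM), and Mag is listed at 0 in all adults.

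Part of the Trf sequence is also annotated under another name. Of the 50-base stretches of its transcripts, the length of the reads, 68.3% also occur in Gm20425, an overlapping gene model that is not in the table, and 1.09% in other genes. How reads that match both models were assigned is not stated in the sources used here.

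Tfrc, the receptor that takes up iron-loaded transferrin (chromosome 16, 32608920 to 32632794, plus strand), was low at both ages. It was at 1.68 and 1.70 FPKM in adult 1 and adult 2 and listed at 0 in adult 3. At E16.5 it was at 2.11, 1.35 and 0.748 FPKM, so that the ages overlapped. The difference was -0.28 on the log2 scale with a 95% interval of -1.80 to 1.25 (limma, adjusted p = 0.795), and it turned positive, at 0.20, without adult replicate 3, at 0.51 under quantile normalization and at 0.0011 with sample weights. With levels this low the pseudocount sets the size: the difference was -1.03 at a pseudocount of 0.1 and -2.08 at 0.01 (limma, adjusted p = 0.651 and 0.566). The percentile of Tfrc was 32.8, 20.8 and 18.2 in adult and 13.4, 11.0 and 8.48 at E16.5, against the sign of the log2 difference. The percentiles did not overlap between the ages (exact permutation p = 0.1, adjusted p = 0.2). In adult 3 the percentile is that of a listed 0, placed at the middle of the genes at 0. In the other libraries it rests on how many genes are listed at 0. That share was 22.0% in adult 1 and 10.3% in adult 2, against 3.68% to 4.02% at E16.5. The percentiles therefore do not show a rise of Tfrc.

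Slc11a2, which moves ferrous iron out of the endosome (chromosome 15, 100387898 to 100425072, minus strand), was at 10.9, 11.9 and 2.89 FPKM in the adult libraries, against 4.58, 2.31 and 4.45 FPKM at E16.5. Adult 1 and adult 2 lay above the E16.5 libraries and adult 3 among them. The difference was 0.86 log2 units with a standard error of 0.71 and a 95% interval of -0.80 to 2.52 (limma, adjusted p = 0.431), and 0.55 to 1.42 with 1 library left out, the highest without adult replicate 3 and the lowest without adult replicate 2. Its percentile was 47.7 to 61.8 in adult and 15.2 to 26.4 at E16.5 and did not overlap (exact permutation p = 0.1, adjusted p = 0.2). Percentiles of low genes rest on how many other genes are listed at 0, which was 10.3% to 36.4% of the genes in the adults. Other genes hold 4.35% of its 50-base stretches as well.

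Fth1, the heavy ferritin chain that oxidises iron as it enters the shell (chromosome 19, 9980598 to 9985098, plus strand), was among the most abundant of the 10 at both ages. It was at 243.2, 177.7 and 69.4 FPKM in the adult libraries, against 283.2, 195.0 and 244.0 FPKM at E16.5. Adult 3 was the low one, and the ages overlapped. The difference was -0.72 log2 units with a 95% interval of -1.79 to 0.36 (limma, adjusted p = 0.321). It was -0.19 without adult replicate 3 and -1.09 without adult replicate 1, neither past the threshold.

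Ftl1, the light chain (chromosome 7, 45457944 to 45459884, minus strand), was at 51.9, 53.5 and 110.7 FPKM in the adult libraries, against 111.1, 141.1 and 166.8 FPKM at E16.5. All adults were below all E16.5 libraries, though adult 3 and E16.5 1 were nearly level. The difference was -1.02 log2 units with a standard error of 0.37 and a 95% interval of -1.89 to -0.15 (limma, unadjusted p = 0.0274, adjusted p = 0.115). Without adult replicate 3 it was -1.37 and passed the threshold (limma, adjusted p = 0.0239), and in the other 5 such fits it did not (limma, adjusted p = 0.190 to 0.296). Ftl1 is the member least separable by sequence, since 86.2% of its 50-base stretches also occur in 17 other annotated genes, most of them in the pseudogene Ftl1-ps1 (69.7%), so its level depends on how the authors' counting treated shared reads and is uncertain.

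The balance of the chains, as the log2 ratio of Fth1 to Ftl1 within a library, was 2.21, 1.71 and -0.67 in adult and 1.34, 0.46 and 0.55 at E16.5. Adult 3 alone held more light than heavy chain. The mean ratio differed by 0.30 between ages (exact permutation p = 0.8) and the sign turned to -0.26 without adult replicate 1 and to -0.014 without adult replicate 2. Both chains carry the 5′ hairpin printed above.

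Slc40a1, ferroportin, the exporter (chromosome 1, 45908068 to 45926523, minus strand), was listed at 0 in all 3 adult libraries and at 1.18, 1.43 and 0.192 FPKM at E16.5. The mean of 0.467 FPKM was under the filter, so it was not tested and no fold is given. The adult libraries are the shallower ones, which limits what a listed 0 shows at these levels. Macrophages are rich in ferroportin, and their 11 markers summed to 0.0695 to 6.82 FPKM in the adult libraries, against 1.84 to 8.97 FPKM at E16.5. C1qa, the highest of them, was listed at 0 in all adults and at 6.98, 0 and 2.78 FPKM at E16.5, and Csf1r, the second, was at 0.0695 to 2.52 FPKM in the adult libraries, against 0.327 to 3.58 FPKM at E16.5. Cx3cr1 went the other way in its mean, at 0, 2.19 and 3.22 FPKM in adult 1, 2 and 3 and 0.0356 to 0.687 FPKM at E16.5, and none of the 3 markers tested was called. Cd68, Aif1, C1qc, Lyve1 and Pf4 were listed at 0 in all 6 libraries. The part of these cells in the level of Slc40a1 was not tested.

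Heph, the membrane-bound ferroxidase that works with ferroportin (chromosome X, 96455359 to 96574485, plus strand), was at 0.959, 10.3 and 1.84 FPKM in the adult libraries, against 12.8, 8.55 and 16.9 FPKM at E16.5. Adult 2 lay within the E16.5 range and the other adults well below it. The difference was -1.74 log2 units with a standard error of 0.80 and a 95% interval of -3.60 to 0.12 (limma, adjusted p = 0.181), and without adult replicate 2 it was -2.50 and passed the threshold (limma, adjusted p = 0.0415), and in the other 5 such fits it did not (limma, adjusted p = 0.238 to 0.395).

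Cp, the ferroxidase that is secreted or anchored at the surface (chromosome 3, 19957054 to 20009145, plus strand), was at 0.0692, 1.41 and 1.86 FPKM in the adult libraries, against 0, 0 and 0.744 FPKM at E16.5. The ages overlapped, and Cp was not tested. The log2 ratio of Cp to Heph was -0.87, -2.23 and 0.011 in adult and -3.78, -3.26 and -3.36 at E16.5. All adults were above all E16.5 libraries in this ratio, by 2.43 log2 units in the mean (exact permutation p = 0.1, the smallest possible, adjusted p = 0.2 over 6 ratios), and its size rests on low values of Cp: it was 4.12 at a pseudocount of 0.1 and 6.03 at 0.01.

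Aco1, the iron regulatory protein that is an aconitase when it holds an iron-sulphur cluster (chromosome 4, 40143081 to 40198338, plus strand), was at 5.58, 13.5 and 9.91 FPKM in the adult libraries, against 33.4, 24.8 and 43.9 FPKM at E16.5. All adults were below all E16.5 libraries, with clear room between 13.5 and 24.8 FPKM. The mean was 9.67 ± 3.98 FPKM in the adult libraries, against 34.0 ± 9.56 FPKM at E16.5 (SD, n = 3 each), and the difference was -1.75 log2 units with a standard error of 0.48 and a 95% interval of -2.87 to -0.63. It missed the threshold (limma, adjusted p = 0.0581), and passed it without adult replicate 2 (-2.01, limma adjusted p = 0.0421) and without adult replicate 3 (-1.80, limma adjusted p = 0.0486). It did not pass without adult replicate 1 (limma, adjusted p = 0.102) or without any one E16.5 library (limma, adjusted p = 0.128 to 0.196). With an E16.5 library left out 0.140% to 0.565% of all genes were called higher at E16.5.

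Ireb2, the iron regulatory protein that is degraded when iron is plentiful (chromosome 9, 54863789 to 54912530, plus strand), was at 11.3, 22.8 and 13.4 FPKM in the adult libraries, against 25.9, 25.1 and 31.8 FPKM at E16.5. All adults lay below all E16.5 libraries, adult 2 by little. The difference was -0.81 log2 units with a 95% interval of -1.80 to 0.18 (limma, adjusted p = 0.230). Ftl1, Aco1 and Ireb2 were the 3 of 8 tested members with all adults below, beside 31.0% of all genes tested, so that share is near the background.

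The balance of the regulators was compared in the same way. The log2 ratio of Aco1 to Ireb2 within a library was -0.91, -0.71 and -0.41 in adult and 0.35, -0.017 and 0.45 at E16.5. All adults were below all E16.5 libraries, by 0.94 log2 units in the mean (exact permutation p = 0.1, adjusted p = 0.2). Since the ages do not overlap, leaving out 1 library cannot turn the sign. The difference of the ratio was -1.08 to -0.82 in those fits. The percentile of Aco1 was 47.7 to 61.6 in adult and 70.2 to 84.2 at E16.5, and that of Ireb2 was 62.5 to 75.2 and 70.5 to 78.0.

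**Figure D3:**
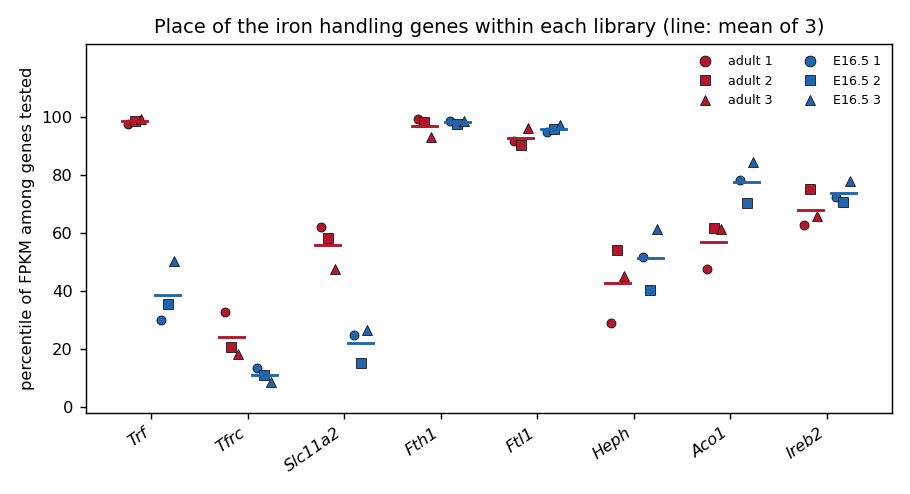
Percentile of FPKM among the 11601 genes tested for the 8 iron handling genes above the filter, with 1 symbol for each library and a line at the mean of 3. Trf moves from 30.0 to 50.2 at E16.5 to 97.3 to 99.3 in adult, while Fth1 and Ftl1 stay at or above 90.2 in all 6 libraries.

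Carrier and receptor were also set against each other. The log2 ratio of Trf to Tfrc was 5.48, 6.31 and 8.49 in adult and 1.12, 1.78 and 2.83 at E16.5, a difference of 4.85 in the mean (exact permutation p = 0.1, adjusted p = 0.2), where adult 3 has Tfrc listed at 0. The ratio of storage to the receptor, Fth1 to Tfrc, differed by -0.44 in the same exact permutation test (p = 0.2), and the ages overlapped. The ratio of the exporter to the receptor, Slc40a1 to Tfrc, gives no comparison, since Slc40a1 is listed at 0 in all adults and the pseudocount sets the value (-0.61, and -2.02 and -4.05 at pseudocounts of 0.1 and 0.01).

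The order of the means also differed between ages. In adult it was Trf, Fth1, Ftl1, Ireb2, Aco1, Slc11a2, Heph, Tfrc, Cp and Slc40a1, where among neighbours Ftl1 and Ireb2 had ranges that did not overlap. Cp and Slc40a1 were split by 0.0692 FPKM against a listed 0, which gives no order. At E16.5 it was Fth1, Ftl1, Aco1, Ireb2, Heph, Trf, Slc11a2, Tfrc, Slc40a1 and Cp. There the ranges of Fth1 and Ftl1, Ftl1 and Aco1, Ireb2 and Heph, Trf and Slc11a2, and Slc11a2 and Tfrc did not overlap, and the other neighbours could not be ordered.

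The members' median difference was -0.77 log2 units, and that of all genes tested was -0.86. Relative to the median of all genes the differences were 5.43 for Trf, 1.72 for Slc11a2, 0.58 for Tfrc, 0.14 for Fth1, 0.042 for Ireb2, -0.16 for Ftl1, -0.89 for Heph and -0.90 for Aco1. The median of all genes moved to -0.58 under median-ratio scaling, to -1.48 when each library was brought to the same sum of FPKM and to -0.18 under quantile normalization. The calls over all genes, 246 for adult and 1024 for E16.5 as deposited, became 348 and 660, 119 and 3238, and 464 and 453. Trf was called higher in adult under each of these scalings, at 4.88, 3.79 and 5.31 log2 units. Aco1 and Ftl1 were called higher at E16.5 under the same sum of FPKM, where 27.9% of all genes were, and not with Mir6236 left out of that sum (limma, adjusted p = 0.0513 and 0.102) or under median-ratio scaling or quantile normalization.

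**Figure D4:**
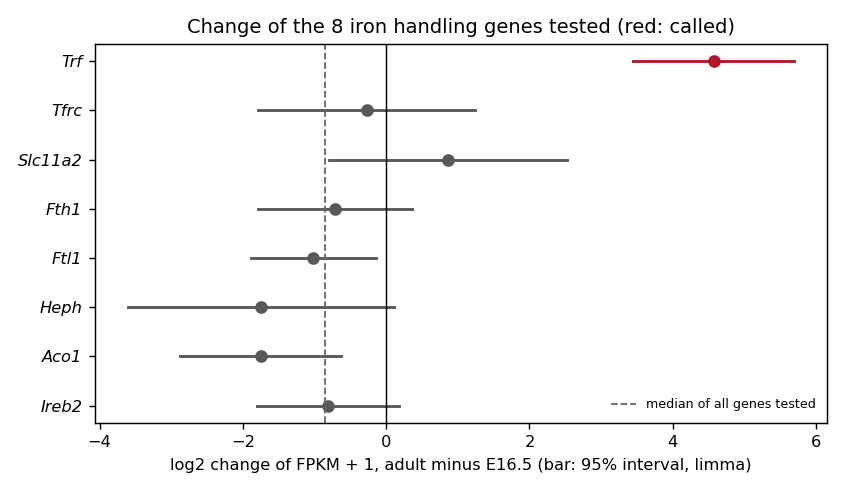
Difference in log2(FPKM + 1), adult minus E16.5, for the 8 iron handling genes tested, as points with 95% intervals from limma on 3 libraries per age; red marks the called gene and the dashed line is the median of all 11601 genes (-0.86). The interval of Trf runs from 3.45 to 5.70, and those of Tfrc, Slc11a2, Fth1, Heph and Ireb2 include 0.

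For the other members above 0 in all libraries, the closest profiles had root mean square differences of 0.093 to 0.23 log2 units. They were Fam20b and Kcnab2 for Slc11a2, Tnk2 and Zcchc14 for Fth1, Vars for Ftl1, Ftsj3 and Cnot11 for Heph, Ift140 and Wdr90 for Aco1, and Kctd20 and Hmgxb4 for Ireb2. Ift140, a part of the ciliary transport machinery, was at 5.28, 12.3 and 10.1 FPKM in the adult libraries, against 22.9, 22.9 and 41.6 FPKM at E16.5. The 8 markers of motile cilia summed to 165.5 to 358.8 FPKM in the adult libraries, against 779.7 to 1056 FPKM at E16.5, in the direction of Aco1, and their part in its level was not tested. That direction is also the one of the median of all genes tested (-0.86 log2 units), so it is not particular to cilia. All these profiles share their libraries and their depth with the members.

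Of 67 further genes of iron and haem, 54 were tested. Adult was the higher age in 2 calls and E16.5 in 1, beside 2.12% and 8.83% of all genes, and 20 had an unadjusted p under 0.05 (limma), beside 31.3%. All adults were above in 9 of the 54 and below in 11, beside 7.39% and 31.0% of all genes. Their median difference was -0.25 log2 units. Both genes called higher in adult belong to uptake, where 11 of 17 genes were tested, and none of that group was called higher at E16.5.

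Steap2, a metalloreductase that turns ferric into ferrous iron in endosomes, was at 65.5, 51.5 and 35.5 FPKM in the adult libraries, against 3.11, 3.73 and 3.69 FPKM at E16.5. All adults lay far above all E16.5 libraries, by 3.48 log2 units with a standard error of 0.45 (limma, adjusted p = 0.00741). Slc22a17, a receptor for the siderophore carrier lipocalin 2, was at 408.2, 507.2 and 444.1 FPKM in the adult libraries, against 232.5, 226.9 and 182.4 FPKM at E16.5. Its groups did not overlap either, and the difference was 1.08 log2 units with a standard error of 0.23 (limma, adjusted p = 0.0308). Neither was called without E16.5 replicate 1, without E16.5 replicate 2 or without E16.5 replicate 3, where 0 genes of this list were called higher in adult (limma, adjusted p = 0.0504 to 0.0559 for Steap2 and 0.0902 to 0.0936 for Slc22a17). In those fits 0.236% to 0.408% of all genes were called higher in adult, beside 2.12% with all libraries. The difference was then 3.42 to 3.52 log2 units for Steap2 and 0.97 to 1.15 for Slc22a17. Slc22a17 was at 0.25 log2 units under the same sum of FPKM (limma, adjusted p = 0.530). Lrp1, a receptor that takes up haem bound to haemopexin among many ligands, was at 137.8 to 158.5 FPKM in the adult libraries, against 41.4 to 98.4 FPKM at E16.5, a difference of 1.30 log2 units (limma, adjusted p = 0.0636).

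Hscb, a co-chaperone that passes on iron-sulphur clusters, was listed at 0 in all adults and was at 20.7, 13.7 and 16.7 FPKM at E16.5 (limma, adjusted p = 0.00961). It passed the filter through its E16.5 values alone, so the call rests on the listed zeros, which do not show absence. It missed the threshold without E16.5 replicate 1, without E16.5 replicate 2 and without E16.5 replicate 3 (limma, adjusted p = 0.0554 to 0.0609). In those fits 0.140% to 0.565% of all genes were called higher at E16.5. Hscb was the 1 gene called among 17 tested for mitochondrial import and iron-sulphur clusters, of 18 in the table. With all libraries 2.12% of all genes were called for adult and 8.83% for E16.5. Bola3 and Isca1, which act late in cluster assembly and were the highest of this group, were at 2.34 to 42.8 and 11.3 to 28.4 FPKM in the adult libraries, against 72.1 to 146.4 and 41.2 to 64.5 FPKM at E16.5 (limma, adjusted p = 0.0823 and 0.0745). Neither overlapped between the ages, and neither passed the test.

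No gene was called in the other roles, where 4 of 5 were tested for storage and chaperones, 2 of 7 for systemic control, 11 of 11 for haem synthesis and 9 of 9 for haem breakdown and transport. Beside this, 2.12% of all genes tested were called for adult and 8.83% for E16.5. Pcbp1 and Pcbp2, chaperones that hand iron to ferritin, lay below E16.5 in all adults, by -1.25 and -0.58 log2 units (limma, adjusted p = 0.122 and 0.206). In the systemic group Bmp6, which drives hepcidin in the liver, was at 26.9 to 76.4 FPKM in the adult libraries, against 31.6 to 38.1 FPKM at E16.5, and Tmprss6, a protease that restrains hepcidin, was listed at 0 in all adults and at 2.29 to 5.12 FPKM at E16.5 (limma, adjusted p = 0.0545). Tmprss6 passed the filter through its E16.5 values alone, so its p rests on the listed zeros, which do not show absence. Hepcidin itself (Hamp, Hamp2) was listed at 0 in all 6 libraries. In haem synthesis Alas1, its first and limiting enzyme, was at 25.8 to 94.1 FPKM in the adult libraries, against 9.58 to 26.0 FPKM at E16.5, and Urod, a later enzyme, was at 32.3 to 92.8 and 129.0 to 141.1 FPKM (limma, adjusted p = 0.0972 and 0.116). In haem breakdown and transport Hmox2, the constitutive haem oxygenase, was at 40.9 to 252.4 FPKM in the adult libraries, against 50.1 to 101.4 FPKM at E16.5, and Slc48a1, a haem transporter, was at 34.4 to 37.9 and 15.3 to 24.2 FPKM (limma, adjusted p = 0.912 and 0.130).

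**Figure D5:**
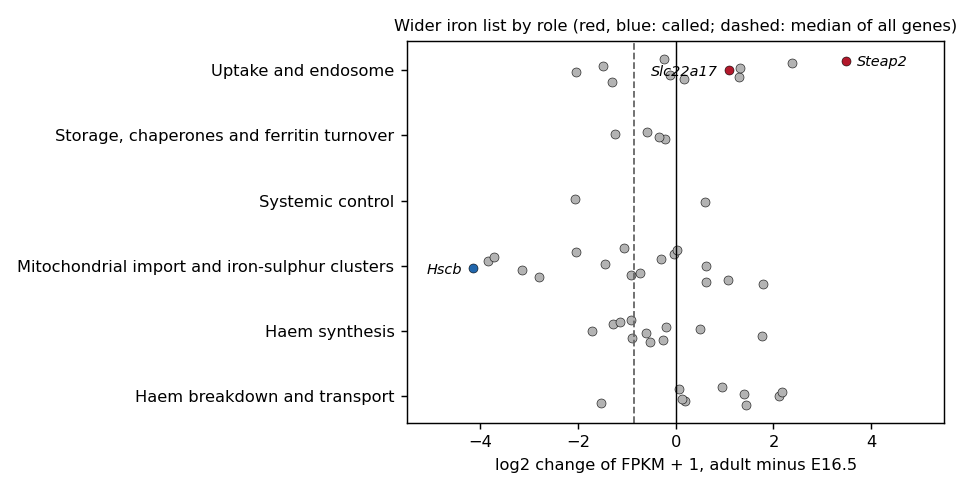
Difference in log2(FPKM + 1), adult minus E16.5, of the 54 further iron and haem genes tested, 1 point each, by role; red marks genes called for adult, blue those called for E16.5 (limma), grey the rest, and the dashed line is the median of all genes tested (-0.86). The 3 called genes are Steap2 (3.48), Slc22a17 (1.08) and Hscb, which is listed at 0 in all adults.

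Markers of other cell types were set beside the iron genes as well. Those of red cells, 9 of 10 in the table, summed to 0 to 6.49 FPKM in the adult libraries, against 54.1 to 323.8 FPKM at E16.5, led by the globins Hbb-bs, listed at 0 in all adults and at 299.2, 3.90 and 86.4 FPKM at E16.5, and Hba-a2, at 20.2 to 49.0 FPKM. Epor was listed at 0 in all 6 libraries. Tfrc, which red cell precursors need in quantity, was at 2.11 FPKM in the library with most Hbb-bs and 0.748 FPKM in the next, and the part of blood in it was not tested. Further lists are given by their summed level. Mesenchyme was at 13.3 to 22.0 FPKM in the adult libraries, against 58.6 to 69.4 FPKM at E16.5, astrocytes at 6.31 to 24.5 and 61.0 to 78.9, neurons and progenitors at 3.38 to 9.88 and 30.0 to 120.0, the cell cycle at 7.30 to 45.8 and 60.4 to 102.6, and endothelium, which overlapped, at 0.489 to 27.2 and 12.7 to 40.6. In these lists 1 of 6 tested markers of mesenchyme, 1 of 4 of astrocytes and 1 of 6 of the cell cycle were called higher at E16.5, and 0 of 6 of neurons and progenitors and 0 of 3 of endothelium in either direction. Of red cells 2 of 4 tested markers were called higher at E16.5, and of motile cilia 2 of 5. Alas2 was not called, and the other tested red cell markers, Hbb-bs, Hba-a2 and Hba-x, were listed at 0 in all adults. They passed the filter through their E16.5 values alone, so their calls rest on the listed zeros, which do not show absence. Ccdc67 and Mcidas of motile cilia and Top2a and Mki67 of the cell cycle were also listed at 0 in all adults. Over all genes tested 2.12% were called for adult and 8.83% for E16.5. The 12 epithelial markers, led by Ttr and Enpp2, summed to 39838 to 55023 FPKM in the adult libraries, against 3090 to 3530 FPKM at E16.5, with 5 of them called for adult and 2 for E16.5. Most of this contrast is Ttr, at 20922 to 31302 FPKM in adult and listed at 0 at E16.5, and Enpp2. Enpp2 was at 14886 to 18732 FPKM in adult, against 242.0 to 303.0 FPKM at E16.5. Of the rest, Folr1, Clic6, Otx2, Aqp1 and Lmx1a had higher means at E16.5, and Sostdc1, Kcnj13, Kl, Car12 and Prlr in adult.

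Other genes that carry the hairpin were counted too. With a 5′ hairpin there were 20, of which 16 were tested, with 1 call for each age, and with a 3′ hairpin 99, of which 69 were tested, with 3 calls for each, beside 2.12% of all genes called for adult and 8.83% for E16.5. The medians were -0.62 and -0.63 log2 units, beside -0.86 for all genes. The genes with a 3′ hairpin called higher at E16.5 were Fam198a, Ptgs1 and Slc6a6. Fam198a and Ptgs1 were listed at 0 in all adults and passed the filter through their E16.5 values alone. Slc6a6 was listed at 0 in adult 1 and adult 3 and was at 0.529 FPKM in adult 2. Their calls rest on listed zeros, which do not show absence.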

How the data were processed

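TRAP-seq libraries of ChP from 3 adult and 3 E16.5 samples were assigned to an age by the labels. The authors aligned single-end reads of 50 bases to mm10 with STAR (version 2.4.0 in the submitters' processing notes) and calculated FPKM with Cuffquant of Cufflinks; the deposited FPKM values were used as they stand. The annotation given to Cuffquant is not stated in the sources used here. Read counts were not analysed here, and the depth was read only in relative terms, from the steps between low values of 2523 genes (62.9% to 80.0% of 45 to 70 low values per library within 0.1 of a whole read). These steps are not firm enough to recover counts, and none are given. Genes with a mean FPKM above 1 were tested two-sided with limma (3.58.1, under R 4.3.3; intensity trend) on log2 of FPKM plus 1, with Benjamini-Hochberg adjustment over 11601 genes at a threshold of 0.05. The pseudocount of 1 understates changes of low genes. The code was tested on simulated data. Ratios and percentiles were compared by exact permutation of 20 arrangements. p-values measure the spread between these samples, which may be partly technical.

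The members and lists were chosen with earlier results of these data known. Named genes were all 10 members, every called gene of the wider list and the 2 with the highest mean in each of its roles, the 2 highest genes of the marker lists that touch a result with the markers at 0, and for each member above 0 in all libraries the 2 closest profiles. Some genes that this rule selects are not reported here. List symbols were matched through RefSeq synonyms. Positions and UTR sequences are from GENCODE M21 (GRCm38). Alternatives were other pseudocounts, filters, scalings, variance models, a threshold of 0.01, a replicate block and each library left out.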

Additional observations from a re-analysis of the deposited data

How the results depend on the processing

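Each result was recomputed with other settings, and the cause of a change was not tested. Trf stayed called in 17 of 18 and missed the threshold without E16.5 replicate 2 (4.51, limma adjusted p = 0.0556). The number of members called higher in adult ranged from 0 to 1 with 1 library left out. The number called higher at E16.5 was 0, and 2 under the same sum of FPKM and with sample weights, and 0 to 2 with 1 library left out (2 without adult replicate 2, Heph and Aco1, and 2 without adult replicate 3, Ftl1 and Aco1). In these settings 27.9%, 11.2%, 14.7% and 11.6% of all genes were called higher at E16.5, beside 8.83%. Under the same sum of FPKM Ftl1 was at -1.84 and Aco1 at -2.52 (limma, adjusted p = 0.0199 and 0.0182), with Mir6236 left out of that sum at -1.18 and -1.91 and not called (limma, adjusted p = 0.102 and 0.0513), and with sample weights at -1.22 and -1.75 (limma, adjusted p = 0.0444 and 0.0490). With 1 library left out the ranges were 4.18 to 4.98 for Trf, -0.52 to 0.20 for Tfrc, -1.37 to -0.83 for Ftl1, -2.50 to -1.23 for Heph and -2.01 to -1.44 for Aco1. Tfrc turned to 0.51 under quantile normalization and 0.0011 with sample weights, and was at -1.03 and -2.08 at pseudocounts of 0.1 and 0.01. The ratio of Fth1 to Ftl1 ranged from -0.26 to 1.18 with 1 library left out (-0.014 without adult replicate 2), that of Fth1 to Tfrc turned to 0.31 and 1.36 at pseudocounts of 0.1 and 0.01, and the percentile of Fth1 changed by -2.61 to 0.537 points.

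The members' median moved to -0.26 under quantile normalization, -1.57 under the same sum of FPKM and -0.43 under median-ratio scaling, and relative to all genes to 0.53 at a pseudocount of 0.01 and -0.44 among genes above 0 in all libraries. In the wider list the 2 genes called higher in adult became 6 under quantile normalization, 4 under median-ratio scaling, and 1 under the same sum of FPKM, without the trend, at a threshold of 0.01 and with the replicate block, and 0 to 3 with 1 library left out. The 1 gene called higher at E16.5 became 2 at either smaller pseudocount, 3 without a filter, 0 among genes above 0 in all libraries, 12 under the same sum of FPKM and 3 if Mir6236 was left out of that sum, 2 without the trend, 4 with sample weights, and 0 to 6 with 1 library left out. Slc22a17 also lost its call without the trend (limma, adjusted p = 0.135) and with the replicate block (limma, adjusted p = 0.0683). Bmp6 turned to -0.22 under the same sum of FPKM, and Hmox2 to -0.69 under it, -0.034 if Mir6236 was left out of that sum, -0.31 with sample weights and -0.71 to 0.58 with 1 library left out.

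Samples of different ages share only a number. Deviations of same-numbered samples correlated at 0.00089, 0.044 and 0.015. With the replicate block 1 member, Trf (limma, adjusted p = 0.00695), was called higher in adult and 0 at E16.5, as without it.

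Depth limits Slc40a1, Cp and Tfrc most, since the adult libraries are the shallower ones and list more genes at 0. Calls with an E16.5 library left out rest on 2 libraries of that age. In those fits 0.236% to 0.408% of all genes were called for adult and 0.140% to 0.565% for E16.5. With all libraries the shares were 2.12% and 8.83%, so a call lost there is not particular to a gene.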

Other observations

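Relatives of the iron carriers and ferritins were looked up after the values of the main genes had been seen. Ltf (lactotransferrin), Mfi2 (melanotransferrin) and Fthl17 (a testis ferritin) were listed at 0 in all 6 libraries, so that Trf was the only one of these carriers measured above 0. Lrp2, megalin, an endocytic receptor that takes up several carrier proteins, was listed at 0 in all adults and at 3.64, 2.03 and 3.53 FPKM at E16.5, and missed the threshold (limma, adjusted p = 0.0541). Lrp2 passed the filter through its E16.5 values alone, so its p rests on the listed zeros, which do not show absence.

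Among the other mRNAs with a 5′ hairpin, Ppp1r1b, an inhibitor of protein phosphatase 1, was at 300.7, 379.9 and 242.3 FPKM in adult and 72.2, 87.7 and 95.7 FPKM at E16.5 (limma, log2 difference 1.83, standard error 0.28, adjusted p = 0.0111). Nasp, a histone chaperone, was at 0.133 and 10.9 FPKM in adult 1 and adult 2, listed at 0 in adult 3, and at 67.6, 58.1 and 40.4 FPKM at E16.5 (limma, adjusted p = 0.0310).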
